A study of Mus musculus with 4 samples.

Results

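The response to lipopolysaccharide (LPS) of dendritic cells (DCs) lacking both liver X receptors was measured as the difference between 2 of the 4 arrays of the series. Both arrays carried RNA of LXR double knockout cells (LXR-DKO, combined deficiency of LXRα and LXRβ, strain C57/BL6). The cells were grown from bone marrow for 6 to 7 days in the growth factor GM-CSF at 20 ng/mL, and the non-adherent cells were enriched on beads against the integrin CD11c. The control cells were then kept for 24 h with GM-CSF at 10 ng/mL, which is the immature state. The LPS cells were kept for 24 h with the same GM-CSF and LPS at 100 ng/mL, which is the mature state. The remaining 2 arrays hold WT cells of the same strain under the same conditions and are given here only for contrast. How LXRα and LXRβ were deleted is not given in the sources used here. Neither are the age, number and pooling of the mice, nor the number of cultures behind each array. All 34945 probe sets with 1 gene symbol, of 45037 that are not controls of the manufacturer, were taken, and these stand for 18193 genes. A gene was counted as measured where at least 1 of the 2 signals reached a floor of 28.9, the median of all signals, and 11793 genes were. Signals below the floor were raised to it, and a ratio that uses one is a limit: the true fold was this large or larger, written as "at least".

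Each side of the comparison is 1 array. No test across genes was therefore possible, the number of arrays limits the precision, and every ratio below describes these 2 arrays. The single internal error is the spread between probe sets of the same gene. Its SD was 0.42 on the log2 scale for the ratio of LPS over control (4934 genes with 13209 probe sets), and it covers neither cultures nor mice nor hybridisations. The threshold for counting a gene was a 2-fold ratio in either direction, which is 1 on the log2 scale.

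LPS is a component of the outer membrane of Gram-negative bacteria that is handed by CD14 to Toll-like receptor 4 and its partner MD-2. The adaptor MyD88 then leads to NF-kappaB and to cytokine, chemokine and feedback genes, while the adaptor TRIF leads to type I interferon, which acts back on the cells and induces antiviral genes. In DCs this is followed by maturation: surface ligands for T cells increase, uptake receptors are lost, and the receptor CCR7 directs the cells to lymph nodes. LXRs are nuclear receptors for oxysterols that switch on cholesterol export and fatty acid synthesis genes, and in macrophages they are known to restrain part of the inflammatory program.

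The promoters of 7 genes near the top of the response are shown first, because they hold the letters read by the factors at the ends of these pathways. They were chosen after their values were seen. Each line gives the 150 bases before the gene's start, 5′ to 3′ along the gene's strand, from RefSeq on GRCm38.p6. In the first 4, capitals mark the NF-kappaB motif on either strand, searched as GGG, any 2 bases and then TTTCC.
Il6: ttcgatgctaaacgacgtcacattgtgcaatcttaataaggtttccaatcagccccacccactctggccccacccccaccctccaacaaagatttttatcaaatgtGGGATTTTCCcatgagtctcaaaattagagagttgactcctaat
Cxcl1: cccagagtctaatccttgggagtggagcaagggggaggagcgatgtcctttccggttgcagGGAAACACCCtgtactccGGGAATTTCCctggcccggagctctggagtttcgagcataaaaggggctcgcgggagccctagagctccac
Cxcl2: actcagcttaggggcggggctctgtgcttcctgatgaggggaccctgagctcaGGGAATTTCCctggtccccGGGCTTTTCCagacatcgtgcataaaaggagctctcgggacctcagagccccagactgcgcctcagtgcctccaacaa
Cxcl3: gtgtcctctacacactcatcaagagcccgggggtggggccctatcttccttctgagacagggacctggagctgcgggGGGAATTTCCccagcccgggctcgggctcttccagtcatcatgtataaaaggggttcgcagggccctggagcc
Il6, the gene of a fever and acute-phase cytokine, lies on the plus strand with this window at chr5:30012964-30013113, and its match begins at base -44 from the start. Cxcl1, Cxcl2 and Cxcl3 encode neutrophil chemokines and are also on the plus strand, at chr5:90891095-90891244, chr5:90903749-90903898 and chr5:90785951-90786100. The matches begin at -89 and -71 in Cxcl1, at -97 and -78 in Cxcl2 and at -73 in Cxcl3. In the next 3, capitals mark the interferon-stimulated response element on either strand, searched as GAAA, any 2 bases and then GAAA. It reads TTTC, 2 bases and TTTC where it lies on the opposite strand.
Ifit1: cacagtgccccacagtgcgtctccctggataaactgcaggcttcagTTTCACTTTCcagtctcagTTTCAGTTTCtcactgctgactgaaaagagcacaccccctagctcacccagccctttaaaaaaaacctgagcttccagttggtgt
Ifit3: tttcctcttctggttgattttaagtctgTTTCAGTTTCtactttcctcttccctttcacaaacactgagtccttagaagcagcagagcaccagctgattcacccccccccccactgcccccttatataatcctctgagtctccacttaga
Rsad2: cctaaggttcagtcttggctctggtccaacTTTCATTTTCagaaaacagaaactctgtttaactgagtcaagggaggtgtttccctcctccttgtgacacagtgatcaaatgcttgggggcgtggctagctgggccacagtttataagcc
Ifit1 and Ifit3 encode proteins that bind viral RNA and lie on the plus strand at chr19:34640739-34640888 and chr19:34583379-34583528. Rsad2 encodes the antiviral enzyme viperin and lies on the minus strand at chr12:26456453-26456602. The matches begin at -104 and -85 in Ifit1, at -122 in Ifit3 and at -120 in Rsad2.

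These letters were searched on both strands in windows from 250 bases before to 50 after the start, which were matched for 9555 of the 11793 measured genes. The NF-kappaB motif was present in 1.89% of 27025 promoters of all genes and in 2.07% of the measured ones. It was present in 14 of 549 promoters of genes at least 2-fold higher (2.55%), in 8 of 146 of those at least 4-fold higher (5.48%) and in 6 of 185 of those at least 2-fold lower (3.24%). Within the lists, 7 of 24 promoters of NF-kappaB pathway genes, 4 of 16 of chemokine genes, 4 of 19 of cytokine genes and 0 of 22 of interferon response genes held it. The interferon element was present in 3.99% of all promoters, in 3.75% of the measured ones, in 7.29% of those at least 2-fold higher, in 11.6% of those at least 4-fold higher and in 3.78% of those at least 2-fold lower. It was present in 12 of the 22 promoters of the interferon response list. As references, the CCAAT box was present in 42.9% of measured, 38.3% of higher and 49.2% of lower genes. The looser NF-kappaB form of GGG, any 5 bases and CC, which holds every match of the stricter form, was present in 71.6%, 71.0% and 70.3%. A match is a description of the letters and not a bound site.

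The arrays and the labels were checked as follows. The mean signal after leaving out 2% of values at each end was the same on every array, and 50.8% and 52.6% of the probe sets reached the floor on the LXR-DKO control and LPS arrays. The ratio of 3′ over 5′ signal of the control transcripts, which depends on RNA integrity, was 1.14 and 1.28 for Actb and 0.757 and 0.819 for Gapdh. Nr1h3, which encodes LXRα, had signals of 40.4 in control and 27 with LPS, against 108.6 and 54.5 in WT, and where its probe set lies relative to the deletion is not given in the sources used here. Nr1h2, which encodes LXRβ, was not analysed here because it had no probe set with 1 gene symbol. Of the genes that define the labelled cell type, Itgax, which encodes CD11c, had signals of 4404.5 in control and 3848.1 with LPS, and the MHC class II gene H2-Aa 11368.8 in control and 10847.9 with LPS. The macrophage gene Csf1r was also bright on these arrays, at 7445.8 in control and 6885.7 with LPS. Other macrophage markers lay apart, with C1qc at 5386.1 in control and 2566.9 with LPS and Mrc1 at 378.9 in control and 149.3 with LPS. Both LXR-DKO arrays carried female and male transcripts, with Xist at 2750.0 and 2090.4 and the Y-linked Eif2s3y at 279.6 and 384.3, while the WT arrays had Xist at 30.8 and 22.7. Transcripts of both sexes were thus present in the LXR-DKO RNA, and the Y-linked Uty was at 69.7 in control and 128.6 with LPS. Without genes of the X and Y chromosomes, 722 genes were counted as higher and 210 as lower. The part of a differing mix of animals in the other ratios was not tested.

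With LPS, 735 genes were at least 2-fold higher, which is 6.23% of the 11793 measured, and 215 were at least 2-fold lower, which is 1.82%. The higher genes thus made up 77.4% of those counted. They also reached further: 208 genes were at least 4-fold, 61 at least 8-fold, 25 at least 16-fold and 12 at least 32-fold higher, while 9 were at least 4-fold, 1 at least 8-fold and 0 at least 16-fold lower. The median log2 ratio over all measured genes was 0.02. Of the genes higher, 166 were below the floor in control, and of those lower, 14 were below it with LPS. Dim genes were counted more often, since 7.73% of the genes with a mean signal between 28.9 and 100 were at least 2-fold higher, against 1.55% of those above 3000. Probe sets did not always go together. Of 319 genes counted as higher that had several measured probe sets, all of them were above 0 for 272 and all were at least 2-fold higher for 124, and for 47 at least 1 was below 0. Of 85 genes counted as lower with several, all were below 0 for 67 and all were at least 2-fold lower for 21. Counting only genes whose measured probe sets all passed left 540 higher and 151 lower.

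**Figure D1:**
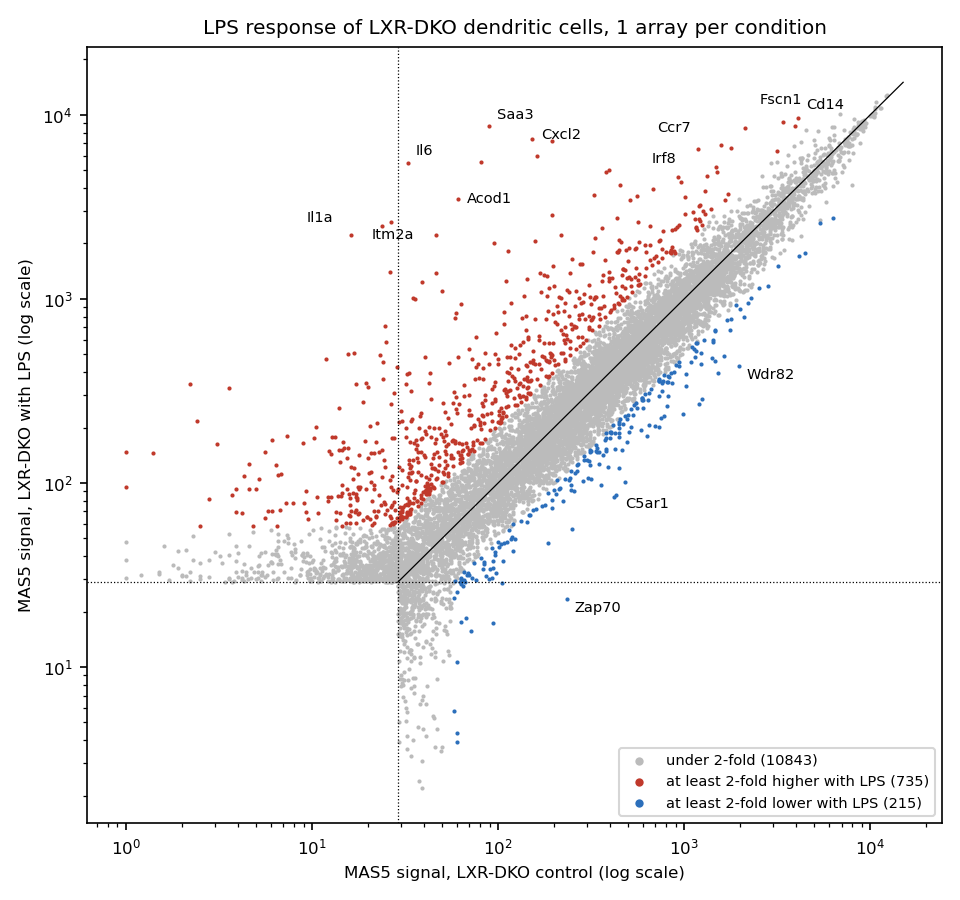
Signal of each measured gene in LXR-DKO control (x axis) and LXR-DKO LPS (y axis), MAS5 signal on log axes, with signals under 1 drawn at 1, 1 point a gene. Genes at least 2-fold higher (735) or lower (215) are coloured, and the cloud above the diagonal reaches much further from it than the cloud below.

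Among genes at or above the floor on both arrays, the 20 with the highest ratio were between 13.2-fold and 168-fold higher. Il6 led them with signals of 32.7 in control and 5492.0 with LPS, a 168-fold difference. The acute-phase gene Saa3 came next at 89.3 in control and 8658.4 with LPS, which is 97.0-fold, and the neutrophil chemokine gene Cxcl1 at 80.4 in control and 5564.4 with LPS, which is 69.2-fold. In control Il6 lay close to the floor, and with LPS all of these were among the bright genes of the array with LPS. Acod1, whose enzyme makes the antibacterial metabolite itaconate, had 61 in control and 3481.9 with LPS, a 57.1-fold difference. Itm2a, which encodes a small membrane protein, had 46.5 in control and 2213.6 with LPS, and its probe sets ranged from 3.83 to 5.57 on the log2 scale. Further down came secreted matrix genes that are not usual members of an LPS list: the collagen cross-linking enzyme gene Lox had 39.1 in control and 1232.7 with LPS and the follistatin-like gene Fstl1 35.7 in control and 1003.6 with LPS. The remaining ones were Ly6i, Pla1a, which encodes a phospholipase, the complement gene Cfb at 14.8-fold, the semaphorin gene Sema7a, the histamine-making enzyme gene Hdc and the arginine transporter gene Slc7a2, with Cxcl2, Il1b, Cxcl3, Il12b, Inhba, Cd200 and Rsad2, which are described by role. Of these 20 genes, 11 had 1 measured probe set, and of the other 9, all probe sets were at least 2-fold higher in 8. The exception was Sema7a, with probe sets from 0.93 to 3.87.

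Genes whose control signal was below the floor have only a lower limit. Il1a had signals of 26.7 in control and 2600.9 with LPS, at least 90.0-fold higher. Hamp, which encodes the iron hormone hepcidin, had 23.9 in control and 2479.1 with LPS, at least 85.8-fold higher, and Ptgs2, the inducible cyclooxygenase gene, 16.2 in control and 2219.1 with LPS, at least 76.8-fold. The pantetheinase gene Vnn3 was at least 48.5-fold higher. Ly75, which encodes the DC uptake receptor DEC-205, had 24.7 in control and 713.7 with LPS, at least 24.7-fold higher. Next came the vesicle fusion gene Syt7, Ifit1, Il12a, the Notch ligand gene Jag1 and Oasl2, of which Jag1 and Syt7 had other probe sets at 0.70 and 0.62 on the log2 scale.

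**Figure D2:**
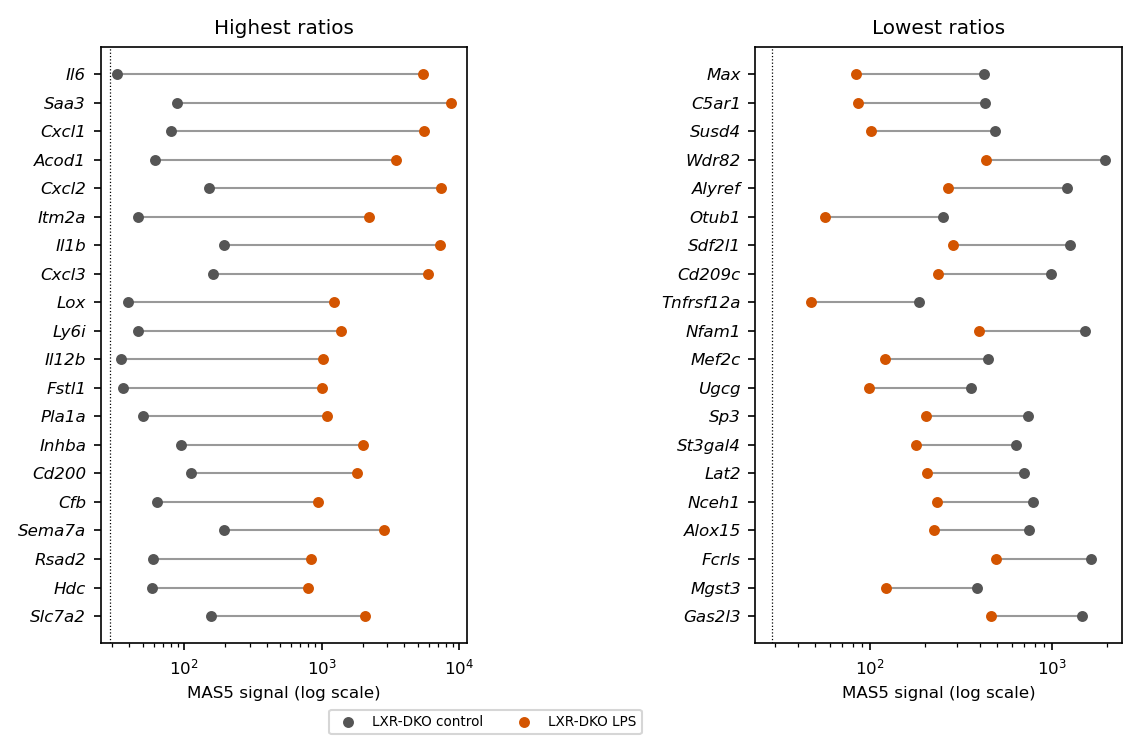
The 20 genes with the highest (left) and the 20 with the lowest (right) ratio of LPS over control in LXR-DKO, among genes at or above the floor on both arrays. Each gene has a grey point for its control signal and an orange point for its LPS signal on a log axis, and the dotted line is the floor of 28.9. The higher genes start close to the floor and end near 1000 or above for most, while the lower genes start brighter and differ by at most 4.99-fold.

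Cytokine genes were higher as a group. Of 28 genes listed, 26 had a probe set and 25 were measured, and of these 18 passed 2-fold upward and 0 downward. Their median log2 ratio was 1.44, beside 0.02 for all measured genes. Of the 25, 8 were below the floor in control and counted as measured through the LPS array alone, so these could only come out higher. Beside Il6 and Il1a, Il1b, which encodes the main secreted interleukin 1, had signals of 195.6 in control and 7211.8 with LPS, a 36.9-fold difference. Both subunits of interleukin 12, which drives T helper 1 responses, were among the highest. The shared p40 subunit gene Il12b had 34.9 in control and 1016.2 with LPS, which is 29.1-fold. The p35 subunit gene Il12a had 15.6 in control and 502.3 with LPS, at least 17.4-fold. Il23a, whose product pairs with p40 to form interleukin 23, had 5.2 in control and 104.5 with LPS, at least 3.62-fold. Ebi3, which encodes a chain shared by cytokines of that family, was bright in control at 909.2 and reached 2466.5. Inhba, the activin A subunit gene, had 94.7 in control and 2000.5 with LPS, which is 21.1-fold, and the granulocyte growth factor gene Csf3 20.0 in control and 330.1 with LPS, at least 11.4-fold. Tnf, which encodes the early inflammatory cytokine, was 3.88-fold higher at 24 h, from 122.5 to 475.2. The natural interleukin 1 blocker gene Il1rn went from 1193.4 to 2706.7, 2.27-fold. The dim Il10, which encodes an anti-inflammatory cytokine, had 11.8 in control and 42.5 with LPS, at least 1.47-fold higher. On the other side Ltb, the lymphotoxin beta gene, had 1752.8 in control and 920.5 with LPS, 1.90-fold lower, and Ifnb1 stayed below the floor at 15 and 22.8.

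Chemokine genes followed the same pattern. Of 24 measured of 27 listed, 16 were 2-fold higher or more and 0 that much lower, for a median of 1.67. Of the 24, 2 were below the floor in control and could only come out higher. The CXC genes for neutrophil recruitment came first. Cxcl2 had 152.1 in control and 7400.4 with LPS, which is 48.7-fold, and Cxcl3 162.6 in control and 5973.3 with LPS, which is 36.7-fold. Genes for monocyte and T cell attractants came next. Ccl3 had 392.6 in control and 5012.2 with LPS, a 12.8-fold difference. The monocyte chemokine gene Ccl2 had 218.5 in control and 2227.1 with LPS, which is 10.2-fold, and its close relative Ccl7 29.5 in control and 213.5 with LPS, which is 7.24-fold. Ccl5 was already at 2109.9 in control and reached 8451.2. The DC chemokine genes were bright on both arrays: Ccl22 had 3948.8 in control and 8635.0 with LPS, which is 2.19-fold, and Ccl17 7194.6 in control and 8268.3 with LPS, which is 1.15-fold. The largest ratio below 0 was that of the monocyte chemokine gene Ccl12, at 108.6 in control and 75 with LPS.

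Of 12 measured secreted host defence genes, 3 were below the floor in control and could only come out higher. The list had the highest median of all lists, 2.96, with 11 of the 12 at least 2-fold higher. This is the least settled of the list medians, since it was 2.33 with only probe sets that carry no suffix for shared targets and 1.996 with no floor, and 5 of 17 members with a probe set were below the floor on both arrays. Cfb, the complement factor B gene, had 63.4 in control and 938.6 with LPS. Marco, a scavenger receptor gene for bacteria, had 32.2 in control and 390.1 with LPS, a 12.1-fold difference, with probe sets from 2.002 to 3.60 on the log2 scale. Lcn2, whose product starves bacteria of iron, had 1583.8 in control and 6861.0 with LPS, which is 4.33-fold. The haptoglobin gene Hp was 4.10-fold higher, and the long pentraxin gene Ptx3 was level at 1143.3 and 1131.6. Of 16 measured genes of the prostaglandin and leukotriene pathway, 3 were below the floor in control and could only come out higher. Of the 16, 3 were at least 2-fold higher and 1 was at least 2-fold lower. Those higher were Ptgs2, the prostaglandin E synthase gene Ptges, which had 33.2 in control and 395.5 with LPS, and the platelet-activating factor hydrolase gene Pla2g7 at 2.21-fold. The thromboxane synthase gene Tbxas1 had 1720.7 in control and 873.7 with LPS, 1.97-fold lower. Of the lipoxygenase genes, Alox5 had 1409.8 in control and 1062.4 with LPS and Alox15, a marker of alternative activation, 748.3 in control and 224.3 with LPS, 3.34-fold lower.

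The antiviral genes induced by type I interferon were higher in most cases. Of 31 measured genes of 36 listed, 24 were 2-fold higher or more and 0 that much lower, and 30 were above 0, with a median of 1.62. Of the 31, 5 were below the floor in control and could only come out higher. Ifit1 had 16.8 in control and 510.0 with LPS, at least 17.6-fold higher, and the oligoadenylate synthetase-like gene Oasl2 11.9 in control and 469.3 with LPS, at least 16.2-fold. Rsad2 had 59.1 in control and 834.6 with LPS, which is 14.1-fold. Irf7, the factor that amplifies interferon production, had 109.7 in control and 1244.1 with LPS, an 11.3-fold difference. Oas3, an RNA sensor gene, was 9.13-fold higher and Ifit3 8.29-fold. The feedback protease gene Usp18, which removes ISG15 and dampens the receptor, was already at 978.3 in control and reached 1681.0, and Stat2 was level at 667.3 and 696.7. The single member below 0 was the DNA-binding gene Ifi203 at 70.9 and 64.2. Of 10 measured interferon-inducible GTPase genes, whose products attack vacuoles of intracellular microbes, 5 were at least 2-fold higher and 10 above 0. Gbp6 had 30.2 in control and 245.8 with LPS, which is 8.14-fold, Gbp2 200.2 in control and 1173.6 with LPS, which is 5.86-fold, and Irgm1 200.9 in control and 752.6 with LPS, which is 3.75-fold. Gbp7 was bright and level at 2417.2 and 2498.5.

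Of the receptors and adaptors that sense LPS and other microbial products, 3 of 19 measured passed 2-fold upward and 0 downward, and the median was 0.13. Cd14, the LPS coreceptor gene, had 4081.6 in control and 9570.3 with LPS, a 2.34-fold difference, and Ly96, the MD-2 gene, 166.3 in control and 442.8 with LPS, which is 2.66-fold. Tlr1, a partner of Tlr2 in lipopeptide sensing, had 37.6 in control and 199.2 with LPS, which is 5.30-fold. The receptor gene itself, Tlr4, was level at 515.1 and 563.0, and the adaptor gene Myd88 had 1684.7 in control and 1405.8 with LPS.

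Genes of NF-kappaB and of its feedback were above 0 in most cases, 26 of 29 measured. Of the 29, 15 passed 2-fold upward and 0 downward, and the median was 1.07. Nfkbiz, whose product is needed for secondary genes such as Il6, had 275.8 in control and 1543.2 with LPS, which is 5.60-fold, with probe sets from 1.06 to 2.48 on the log2 scale. Tnfaip3, the gene of the brake A20, had 324.5 in control and 1804.7 with LPS, which is 5.56-fold. Traf1 was 4.52-fold higher, the kinase gene Ikbke 4.15-fold and Irak3, a decoy kinase that limits Toll signalling, 3.35-fold. Of the subunits, Relb was 2.57-fold and Nfkb2 2.66-fold higher, both of the noncanonical arm, while Rela was level at 1432.9 and 1414.0. Nfkbia, the main inhibitor gene, was the brightest of these at 4525.3 and reached 8214.3, which is 1.82-fold.

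Of the other feedback genes, which encode phosphatases, SOCS proteins, RNA-decay factors and regulators of G protein signalling, 11 of 27 measured passed 2-fold upward and 0 downward. Their median was 0.86, and 4 of the 27 were below the floor in control and could only come out higher. Socs3, the brake on interleukin 6 signalling, had 513.3 in control and 3425.3 with LPS, which is 6.67-fold. Rgs1, which limits chemokine receptor signalling, had 177.3 in control and 1344.6 with LPS, which is 7.58-fold. Of the kinase phosphatase genes, Dusp4 was at least 7.28-fold, Dusp2 3.83-fold and Dusp1 3.17-fold higher. Dusp6 was 1.95-fold lower and was the only listed Dusp gene below 0. The orphan receptor gene Nr4a2 had 17.3 in control and 344.0 with LPS, at least 11.9-fold higher, but its measured probe sets ranged from -0.69 to 3.57. Atf3, a stress-induced repressor gene, was 3.69-fold higher. Of 22 measured immediate early genes, 1 was at least 2-fold higher and 2 were lower at this 24 h time point. Maf, a factor gene that drives Il10, had 84.8 in control and 298.7 with LPS, which is 3.52-fold, with probe sets from 0.56 to 1.82 on the log2 scale. Myc, the growth regulator gene, had 825.1 in control and 375.0 with LPS, 2.20-fold lower, and Klf4 548.1 in control and 273.3 with LPS, 2.01-fold lower.

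Maturation genes of the surface were higher broadly. Of 28 measured of 31 listed, 21 passed 2-fold upward and 0 downward (median 1.51), and none of the ratios was a lower limit. Cd200, whose product inhibits myeloid cells that carry its receptor, had 112.5 in control and 1815.8 with LPS, a 16.1-fold difference. Tnfrsf9, a costimulatory receptor gene, had 453.7 in control and 4158.3 with LPS, which is 9.17-fold. The self-ligand gene Slamf1 had 142.3 in control and 1284.8 with LPS, which is 9.03-fold, with probe sets from 1.49 to 3.17 on the log2 scale. Molecules through which DCs act on T cells were included. Cd70, the CD27 ligand gene, had 30.4 in control and 217.6 with LPS, which is 7.16-fold, and Cd40 211.4 in control and 1029.0 with LPS, which is 4.87-fold. Cd80 was 2.53-fold and Cd86 2.07-fold higher, and the inhibitory ligand genes Cd274 and Pdcd1lg2 2.81-fold and 3.39-fold. The classical maturation marker gene Cd83 had 956.5 in control and 4335.3 with LPS, which is 4.53-fold. The ICOS ligand gene Icosl was the lowest at 666.2 and 422.6, 1.58-fold lower.

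Ccr7, the receptor gene for homing to lymph nodes, had 1189.3 in control and 6482.5 with LPS, a 5.45-fold difference. Fscn1, which bundles actin in the dendrites of mature cells, had 3408.3 in control and 9182.7 with LPS, which is 2.69-fold, with probe sets from 0.48 to 2.04 on the log2 scale, and the actin-linked gene Marcksl1 was 3.28-fold higher. These were exceptions among 45 measured genes of actin and migration, of which 3 were 2-fold higher or more and 0 that much lower with a median of -0.05. The profilin gene Pfn1 was the lowest, 1.73-fold lower. Receptors for chemoattractants went both ways: of 22 measured, 6 were higher and 3 lower, and their median of 0.35 turned to -0.12 under a floor at the 75th percentile. Of the 22 ratios, 3 were limits. On the higher side, S1pr3, a sphingosine 1-phosphate receptor gene, had 134.1 in control and 789.6 with LPS, which is 5.89-fold, and Cxcr5, a receptor gene for B cell follicles, 42.5 in control and 200.6 with LPS, which is 4.72-fold. The chemerin-binding receptor gene Ccrl2 was 4.31-fold and the formyl peptide receptor gene Fpr2 2.63-fold higher. On the lower side, the complement receptor gene C5ar1 had 427.9 in control and 86 with LPS, 4.98-fold lower, the monocyte receptor gene Ccr2 2104.7 in control and 795.2 with LPS, 2.65-fold lower, and the leukotriene receptor gene Cysltr1 731.8 in control and 296.0 with LPS, 2.47-fold lower. Of 30 measured integrin and matrix protease genes, 9 were higher and 1 lower. The collagenase gene Mmp13 had 434.4 in control and 2737.4 with LPS, which is 6.30-fold, and the protease inhibitor gene Timp1 131.1 in control and 558.9 with LPS, which is 4.26-fold. Itgb7, the beta chain gene of gut-homing integrins, had 1763.2 in control and 679.6 with LPS, 2.59-fold lower.

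Antigen presentation genes differed little between these arrays. Of 17 measured MHC class II genes, 0 were higher by 2-fold or more and 0 lower by as much, and the median was -0.13. The chains were among the brightest genes of both arrays and level, with H2-Ab1 at 8527.1 in control and 7814.2 with LPS and the invariant chain gene Cd74 at 10329.7 in control and 10035.5 with LPS. Ciita, the master regulator gene, had 1239.7 in control and 718.5 with LPS, 1.73-fold lower by its brightest probe set. Its 3 measured probe sets ranged from -1.50 to -0.79 on the log2 scale, with a median of -1.34, which is past 2-fold. H2-Oa, which modulates peptide loading, had 1942.5 in control and 1145.4 with LPS, 1.70-fold lower. Of 17 measured class I genes, 2 were higher and 0 lower. The class I transactivator gene Nlrc5 had 119.3 in control and 382.6 with LPS, which is 3.21-fold, and the peptide editor gene Tapbpl 176.0 in control and 484.8 with LPS, which is 2.75-fold.

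Uptake receptors went both ways. Of 36 measured phagocytic, scavenger and lectin receptor genes, 5 were 2-fold higher or more and 4 that much lower, and 10 were above 0, with a median of -0.39. Of the 36 ratios, 3 were limits. Beside Marco, Clec4e, the gene of the mycobacterial glycolipid receptor Mincle, had 327.5 in control and 3646.3 with LPS, which is 11.1-fold, and its partner Clec4d 653.7 in control and 2491.0 with LPS, which is 3.81-fold. The oxidised lipoprotein receptor gene Olr1 had 183.2 in control and 1029.7 with LPS, which is 5.62-fold. Lower were the mannose receptor gene Mrc1 at 378.9 in control and 149.3 with LPS, 2.54-fold, the asialoglycoprotein receptor gene Asgr2 at 4476.1 in control and 1770.2 with LPS, 2.53-fold, and the lectin genes Clec4b1 and Clec4a2 at 2.07-fold and 2.04-fold. In bulk RNA, fewer cells of a type and less RNA per cell cannot be told apart. On the same arrays the median of macrophage and monocyte markers was -0.41, with 3 of 17 past 2-fold upward, 3 past it downward and a summed signal of 62447.6 in control and 55213.3 with LPS, and their part in the receptor ratios was not tested.

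Transcription factors and growth factor receptors of the DC and myeloid lineage were higher for 11 of 37 measured genes and lower for 3, with a median of 0.26. Of the 37 ratios, 3 were limits. Irf8, the factor gene of cross-presenting and plasmacytoid DCs, had 1477.8 in control and 5223.9 with LPS, a 3.53-fold difference. Kit, the stem cell factor receptor gene, had 49.3 in control and 183.6 with LPS, which is 3.72-fold, with probe sets from 0.41 to 1.90 on the log2 scale. Flt3, the receptor gene for the main DC growth factor, had 23.9 in control and 107.3 with LPS, at least 3.71-fold. Prdm1, which encodes Blimp-1, was 2.99-fold higher and Batf3, needed for cross-presenting DCs, 2.15-fold. Zeb2 had 340.1 in control and 155.6 with LPS, 2.19-fold lower, but its median over probe sets was 0.14 on the log2 scale. Of 21 measured nuclear receptor genes, 4 were higher and 1 was lower, and 4 of the ratios were limits. Nr4a2 and Nr4a1, both among the higher ones, were below the floor in control and could only come out higher. Beside Nr4a2, the vitamin D receptor gene Vdr had 147.5 in control and 453.1 with LPS, which is 3.07-fold, and the retinoic acid receptor gene Rara 302.5 in control and 105.9 with LPS, 2.86-fold lower.

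**Figure D3:**
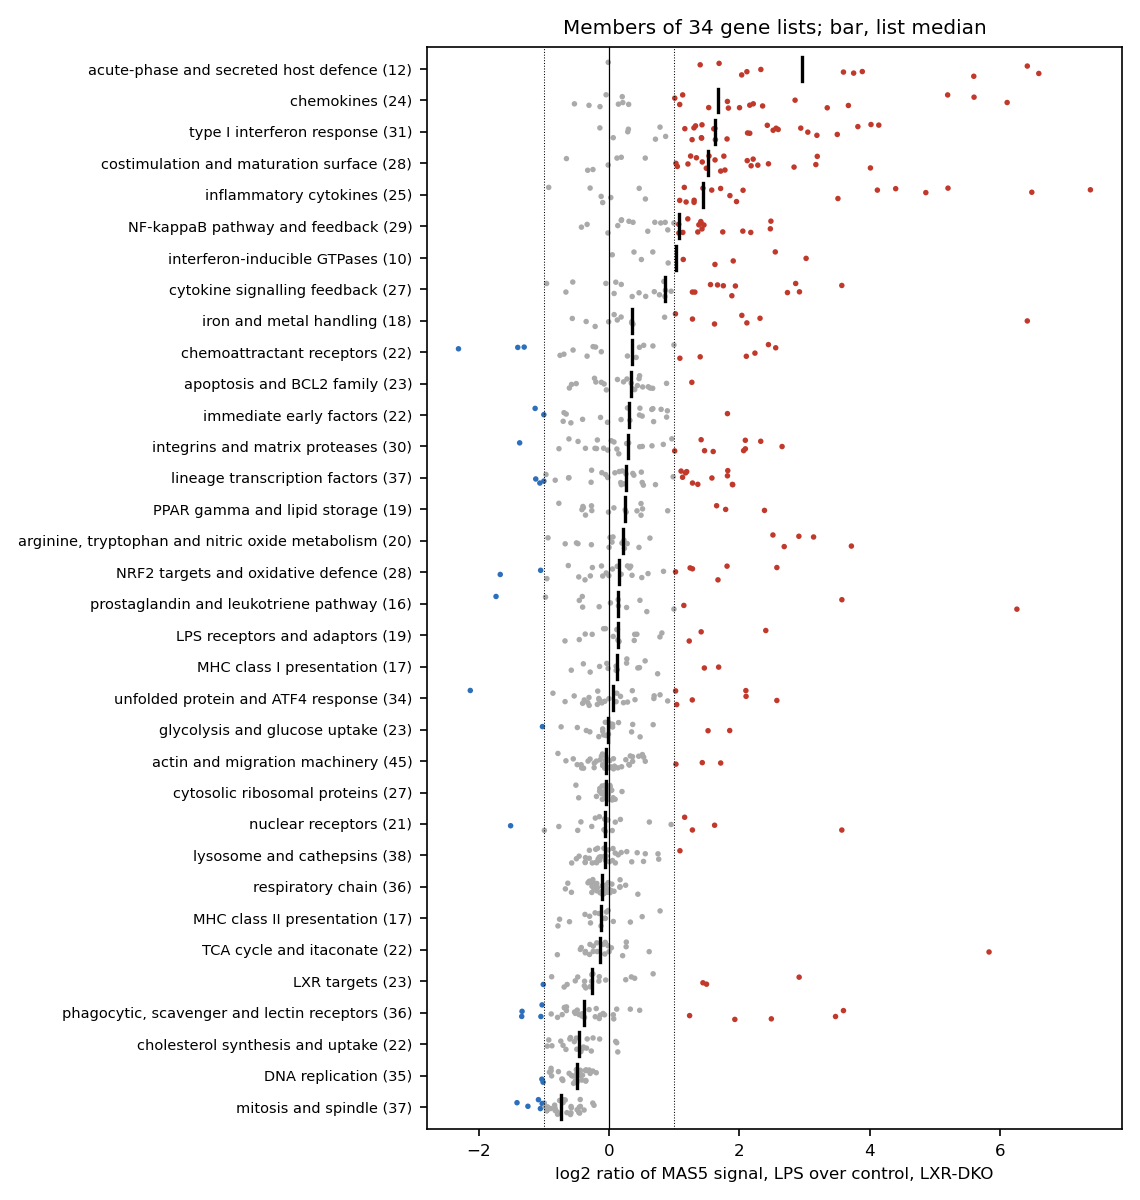
Log2 ratio of LPS over control in LXR-DKO for the measured members of the 34 response lists, 1 point a gene, with a bar at each list's median and dotted lines at 2-fold. Host defence, chemokine, interferon, costimulation and cytokine lists have the highest medians, and mitosis and DNA replication the lowest, with every measured member of the latter lists below 0.

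LXR target genes were read here in cells without the receptors, in a list that also holds Ch25h, an oxysterol-making enzyme gene. Of 23 measured, 3 were 2-fold higher or more and 1 that much lower, and 7 were above 0, with a median of -0.27. Abca1, the cholesterol exporter gene, had 744.9 in control and 2099.5 with LPS, a 2.82-fold difference, with probe sets from 0.45 to 1.49 on the log2 scale. The apolipoprotein gene Apoc2 had 137.5 in control and 1039.1 with LPS, which is 7.56-fold. Ch25h, the remaining one of the 3, makes the oxysterol 25-hydroxycholesterol, so that its place is on the ligand side of the receptors. Ch25h had 86.8 in control and 235.5 with LPS, which is 2.71-fold. Abcg1, the partner exporter gene, was level at 1242.7 and 1197.3. Fatty acid genes were below 0 without passing 2-fold by their brightest probe sets: Elovl6 was 1.85-fold, Acaca 1.62-fold, Fasn 1.30-fold and Srebf1 1.30-fold lower. Probe sets ranged from -1.45 to -0.48 on the log2 scale in Elovl6 and from -1.45 to -0.69 in Acaca. The median over probe sets of Acaca was -1.07, which is past 2-fold. Abca9 was the lowest, with 208.0 in control and 103.1 with LPS.

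Cholesterol synthesis and uptake genes were slightly lower together. Of 22 measured, 0 were 2-fold higher or more and 0 that much lower, but only 3 were above 0 and the median was -0.47. Dhcr7, which completes cholesterol, had 688.8 in control and 356.4 with LPS, 1.93-fold lower, and the sterol sensor gene Insig1 526.0 in control and 285.9 with LPS, 1.84-fold lower. Srebf2, the master regulator gene, was 1.67-fold lower, and Idi1 was at 2828.7 and 3030.8. Of 19 measured genes of PPAR gamma and lipid storage, 3 were higher and 0 lower. The lipid droplet gene Hilpda had 65.3 in control and 341.2 with LPS, which is 5.23-fold. Dgat2, which makes triglycerides, had 52.4 in control and 181.1 with LPS, which is 3.46-fold, with probe sets from 0.51 to 1.79 on the log2 scale. Fabp4, the fatty acid carrier gene, had 46.9 in control and 147.2 with LPS, which is 3.14-fold, and Pparg itself 83.4 in control and 48.8 with LPS, 1.71-fold lower.

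In amino acid metabolism, 5 of 20 measured genes passed 2-fold upward and 0 downward, and 6 of the ratios were lower limits. The arginine transporter gene Slc7a2 had 157.0 in control and 2069.4 with LPS, a 13.2-fold difference, with probe sets from 1.89 to 4.40 on the log2 scale. Among genes of enzymes that compete for arginine, Nos2 and Arg1 came from below the floor. The nitric oxide synthase gene Nos2 had 2.4 in control and 217.8 with LPS, at least 7.54-fold higher. The arginase gene Arg1 had 8.9 in control and 165.2 with LPS, at least 5.72-fold higher. Arg2, the other arginase gene listed, was above the floor with 34.5 in control and 222.4 with LPS, which is 6.45-fold. Its probe sets ranged from 1.93 to 2.69 on the log2 scale. Ido1, which breaks down tryptophan, had 14 in control and 254.7 with LPS, at least 8.81-fold higher. Retnla, a marker gene of alternative activation, had 4228.8 in control and 2204.4 with LPS, 1.92-fold lower. Of 18 measured iron and metal genes, 7 were higher and 0 lower, and 3 of the ratios were limits. After Hamp came the ferroxidase gene Cp, with 12.7 in control and 144.0 with LPS, at least 4.98-fold higher, and probe sets from 0.57 to 2.32 on the log2 scale. The metallothionein gene Mt2 had 447.7 in control and 1838.3 with LPS, which is 4.11-fold. Tfrc, the transferrin receptor gene, was at 2849.3 and 2453.3.

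Oxidative defence and stress genes went both ways. Of 28 measured NRF2 target and oxidative defence genes, 6 were 2-fold higher or more and 2 that much lower. The cystine importer gene Slc7a11, which supplies glutathione synthesis, had 84.7 in control and 504.9 with LPS, which is 5.96-fold, and the mitochondrial superoxide dismutase gene Sod2 1330.6 in control and 4666.7 with LPS, which is 3.51-fold. The haem oxygenase gene Hmox1 was 2.43-fold higher. Gsr, which regenerates glutathione, had 907.9 in control and 437.6 with LPS, 2.07-fold lower, and the microsomal transferase gene Mgst3 387.9 in control and 121.6 with LPS, 3.19-fold lower. Of 34 measured genes of the unfolded protein and ATF4 response, 6 were higher and 1 was lower. Among the higher ones, Ddit4, an inhibitor gene of mTORC1, had 181.7 in control and 780.4 with LPS, which is 4.29-fold, and Atf5 136.1 in control and 583.3 with LPS, which is 4.29-fold. The chaperone cofactor gene Sdf2l1 had 1251.7 in control and 285.2 with LPS, 4.39-fold lower.

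Energy metabolism was level apart from single genes. None of 36 measured respiratory chain genes was at least 2-fold higher or lower, with a median of -0.11. Of 22 measured genes of the TCA cycle and itaconate, Acod1 alone was counted, and the citrate synthase gene Cs was at 2212.0 and 2079.8. Of 23 measured glycolysis genes, 2 were higher and 1 was lower. Pfkfb3, whose product raises the rate of glycolysis, had 165.6 in control and 597.5 with LPS, which is 3.61-fold, and the lactate transporter gene Slc16a1 378.8 in control and 186.1 with LPS, 2.04-fold lower. Lysosomal genes had 1 of 38 counted as higher and 0 as lower, with the cathepsin gene Ctsk at 2.12-fold. Survival and death genes had 1 of 23 counted as higher, the stress gene Gadd45b at 2.41-fold, and a median of 0.34. The probe sets of Gadd45b ranged from 0.29 to 1.90 on the log2 scale. Cytosolic ribosomal protein genes, taken as a reference, had 0 higher and 0 lower of 27 and a median of -0.05.

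Cell cycle genes were lower together and by small amounts. All 37 measured genes of mitosis and the spindle and all 35 of DNA replication were below 0, with medians of -0.74 and -0.50, and 5 and 2 were at least 2-fold lower. Fbxo5, an inhibitor gene of the anaphase-promoting complex, had 504.3 in control and 189.0 with LPS, 2.67-fold lower, and the survivin gene Birc5 1081.8 in control and 455.3 with LPS, 2.38-fold lower. Ube2c, which works with that complex, had 1273.3 in control and 599.4 with LPS, 2.12-fold lower. Among replication genes, the thymidine kinase gene Tk1 had 594.9 in control and 290.5 with LPS, 2.05-fold lower, and the polymerase gene Pold1 535.8 in control and 265.0 with LPS, 2.02-fold lower. The proliferation marker gene Mki67 was still at 1354.7 with LPS, against 1855.7 in control, 1.37-fold lower, and Pcna at 3954.7 against 5047.4.

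The 20 genes with the lowest ratio were between 3.17-fold and 4.99-fold lower and belonged to no single list. Max, the gene of the partner of MYC, led them at 4.99-fold lower, followed by C5ar1. Wdr82, a subunit gene of histone methylating complexes, had 1959.0 in control and 431.7 with LPS, 4.54-fold lower. Cd209c, a lectin gene of the DC-SIGN family, was 4.17-fold lower, and the receptor gene Nfam1 3.80-fold. The transcription factor genes Mef2c and Sp3, the adaptor gene Lat2, the microglia and macrophage gene Fcrls, Alox15, Mgst3 and Sdf2l1 were also among them. So were Susd4, Alyref, Otub1, Tnfrsf12a, Ugcg, St3gal4, Nceh1 and Gas2l3. These values rest on less than those of the higher genes: 10 of the 20 had 1 measured probe set, and of the other 10, all probe sets were at least 2-fold lower in 3. For Alyref they ranged from -2.16 to -0.17 on the log2 scale and for Otub1 from -2.15 to -0.25. Below the floor with LPS, Zap70, a kinase gene of T and NK cell receptors, had 233.2 in control and 23.4 with LPS, at least 8.07-fold lower, the only gene beyond 8-fold on this side. Cygb, Sgsm3, N6amt1, Acap3, Tmem150b, Ctdspl, Zfp619, Frat2 and Vmn1r44 had the next largest limits, with at least 3.61-fold for Cygb.

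The summed signal of every marker list other than that of macrophages and monocytes was higher with LPS, and the part of other cell types in the ratios above was not tested. B cell markers had 5 of 14 measured genes past 2-fold upward and 0 past it downward, with a median of 0.85 and a summed signal of 4258.4 in control and 7498.7 with LPS. Of the 14, 3 were below the floor in control and could only come out higher. Ms4a1, which encodes CD20, had 208.4 in control and 851.0 with LPS, which is 4.08-fold, and Cd79a 114.6 in control and 397.7 with LPS, which is 3.47-fold. Plasmacytoid DC markers had 4 of 11 higher, but Irf7 and Bst2 among them are also interferon response genes, and the defining gene Siglech was at 24.6 and 31.2. Mast cell, basophil and eosinophil markers had 5 of 13 higher and 0 lower, with 11 above 0 and a summed signal of 2119.8 and 3666.3. Of the 13 ratios, 2 were limits. Of 19 members with a probe set, 6 were below the floor on both arrays. Hdc, also in the host defence list, was among the 5, with 58.5 in control and 789.9 with LPS. The bright member Siglecf was 1.67-fold lower, with 699.6 in control and 417.8 with LPS. The mast cell protease gene Cpa3 had 259.0 in control and 706.2 with LPS and the high-affinity IgE receptor gene Fcer1a 36.3 in control and 170.2 with LPS. Stromal and fibroblast markers had 8 of 16 higher and 1 lower and the highest median of the marker lists, 1.04, and 7 of their ratios were lower limits. The matrix gene Dcn had 116.9 in control and 948.2 with LPS, which is 8.11-fold, and Col3a1 23 in control and 146.7 with LPS, at least 5.08-fold, while Fn1 was at 2806.1 and 1861.5. This stands beside the ratios of Lox and Fstl1.

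Among T and NK cell markers, 4 of 11 were higher and 1 was lower, and 6 of the ratios were lower limits. The defining genes Cd3d and Cd3g were near the floor with LPS at 31.6 and 29.3, and Il7r, which activated DCs also express, made up most of the sum with 767.0 in control and 2332.6 with LPS. Erythroid and megakaryocyte markers had 3 of 7 higher, with a summed signal of 2869.3 and 7215.9, against 3990.2 and 7165.5 in WT. Those higher were Pf4, Car2 and Ppbp, of which Pf4 and Ppbp are also in the chemokine list. The platelet chemokine gene Pf4 had 1007.1 in control and 2905.5 with LPS, and Car2 1206.6 in control and 3190.1 with LPS. Of 12 members with a probe set, 5 were below the floor on both arrays. Neutrophil and granulocyte precursor markers had 2 of 18 higher and 0 lower and a median of 0.0021. Their bright genes were level, with S100a8 at 6341.7 in control and 7255.6 with LPS and S100a9 at 5734.3 in control and 5366.3 with LPS. The host defence gene Lcn2, also in this list, and the stefin gene Stfa3, with 555.7 in control and 3636.4 with LPS, were the exceptions. Conventional DC markers had 6 of 18 higher and 0 lower, with a median of 0.28, or -0.045 with the median over probe sets, and these were Ccr7, Flt3, Irf8, Btla, Cd1d1 and Batf3. Without the marker genes of all other cell types, 705 genes were counted as higher and 213 as lower.

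**Figure D4:**
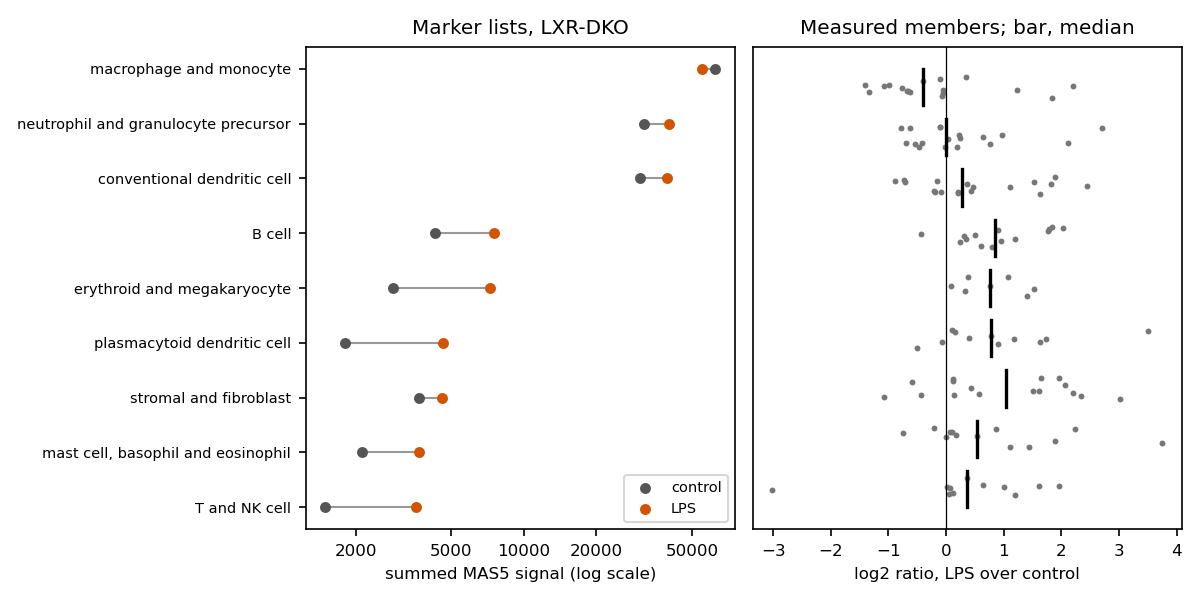
Left, summed MAS5 signal of all markers of each cell type with a probe set, also those below the floor, in LXR-DKO control (grey) and LPS (orange), log axis. Right, log2 ratio of LPS over control for each measured marker, with a bar at the list's median. Macrophage markers are the one list with a lower sum with LPS, and the dim lists of B, plasmacytoid, erythroid, stromal, mast and T cells have medians above 0.

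WT cells shared part of this response. Of 11449 genes measured in WT, 336 were at least 2-fold higher (2.93%) and 548 lower (4.79%). The 2 comparisons share no array, and with 1 array a group the difference between genotypes was not tested. Of 631 genes higher in LXR-DKO that were measured in both genotypes, 202 were also at least 2-fold higher in WT, 414 lay within 2-fold and 15 were at least 2-fold lower. Of 188 genes lower in LXR-DKO, 62 were lower in WT, 124 lay within 2-fold and 2 were higher. Over genes measured in both, the median of costimulation and maturation genes was 1.49 in LXR-DKO and 0.45 in WT, that of chemokines 1.92 and 0.67, and that of cytokine feedback genes 0.85 and 0.23. Interferon response genes went the other way, with 1.62 and 2.43, and host defence genes were close at 2.96 and 3.01. Among the response lists the widest gap was in mitosis genes, with -0.74 and -2.33, where 36 of 37 were at least 2-fold lower in WT.

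Part of these differences lay in the control level. Acod1 had WT signals of 993.5 without and 7208.1 with LPS, against 61 and 3481.9 in LXR-DKO, so that the LPS levels lay closer as a ratio than the controls. Ccl3 had 5499.5 and 6867.8 in WT, against 392.6 and 5012.2. Ccl2 had 3638.8 and 2340.3 in WT, against 218.5 and 2227.1. For these genes the LXR-DKO control was the low array of the 4. Other genes differed on the LPS side. The p40 gene Il12b had 21.7 and 61 in WT, against 34.9 and 1016.2. Itm2a had 37.3 and 82.8, against 46.5 and 2213.6. Hamp had 12.3 and 149.7, against 23.9 and 2479.1. For these the LXR-DKO LPS array was the high one. The mitotic gene Birc5 had 748.9 and 93.8 in WT, against 1081.8 and 455.3 in LXR-DKO. Zap70 had 87 and 120.9 in WT, so that its ratio in LXR-DKO had no counterpart there.

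**Figure D5:**
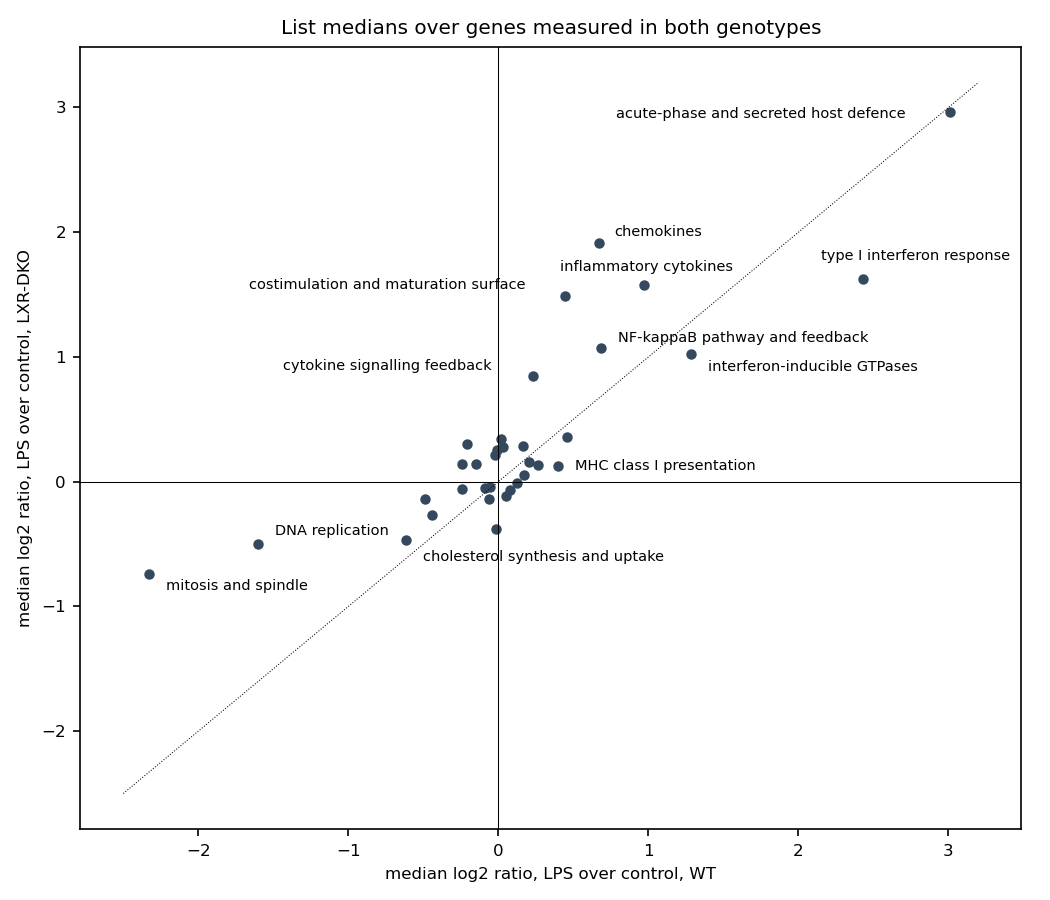
Median log2 ratio of LPS over control for each of the 34 response lists, WT on the x axis and LXR-DKO on the y axis, over genes measured in both genotypes, with the line of equality dotted. Chemokine, costimulation and feedback lists lie above the line, interferon lists below it, and the cell cycle lists lie far to the left with values nearer to 0 in LXR-DKO.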

How the data were processed

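RNA of each of the 4 groups was hybridised to 1 array. The authors deposited 1 linear intensity for every probe set on each array, computed with MAS5 per the submitters' processing notes, whose version is not given in the sources used here. Biotinylated cRNA was made in 2 amplification cycles per the labels' protocols, which favours the 3′ end. No detection calls were used.

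Genes were named from the platform annotation: 34945 of 45037 probe sets had 1 symbol, 932 several and 9160 were not listed. A gene with several probe sets was read from the one that was brightest on average. Signals below 28.9 were set to that floor, and ratios are log2 of LPS over control. Lists (43, holding 1104 genes, 995 with a probe set and 928 measured) and members were chosen with earlier results of these data known. The genes named are the 20 highest and 20 lowest, the 10 largest lower limits per direction, and per list the 6 largest ratios and the largest of opposite sign, with Nr1h3, Nr1h2, Ccr7 and Cd38. Cd38 was not analysed here, as it had no probe set with 1 symbol. Genes with provisional names (21 higher, 5 lower) were counted only. Further members were named after their values were seen. Alternatives covered scaling, floors, probe sets and the fold threshold. Genes of the X and Y chromosomes, marker genes and disagreeing probe sets were left out as alternatives chosen after seeing the data. Promoters were matched by gene to RefSeq windows of GRCm38.p6. The counting was checked on simulated data. Python 3.11.15 with pandas 2.3.3 and numpy 2.4.6 was used.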

Additional observations from a re-analysis of the deposited data

Results flagged for a closer look

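Among the genes that the naming rule gave, Cpa3 and Fabp4 had responses of opposite sign in the genotypes, with more than 2-fold on each side and all signals at or above the floor. Cpa3, a mast cell protease gene, had a log2 ratio of 1.45 in LXR-DKO and -1.36 in WT, from signals of 259.0 without and 706.2 with LPS in LXR-DKO, against 112.7 and 43.8 in WT. Fabp4, a fatty acid carrier gene, had 1.65 in LXR-DKO and -3.001 in WT, from signals of 46.9 and 147.2 against 707.9 and 88.4. The difference between genotypes was not tested, since each group is 1 array.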

How the results depend on the processing

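Both counts followed the floor and the fold. Genes higher numbered 1541 with the floor at the 25th percentile, 324 with it at the 75th, 1530 at 1.5-fold and 340 at 3-fold; genes lower numbered 560, 114, 1073 and 30. Under the other alternatives they lay between 540 and 855 and between 151 and 242, and higher genes made up 73.3% to 80.0% of those counted under the scaling, floor and probe set alternatives. Of 43 list medians, 34 stayed within the probe set spread in every alternative. The acute-phase median was 2.12 with either other floor, 1.996 with no floor and 2.33 without suffixed probe sets. With the floor at the 75th percentile, medians were 0.10 for mast cell, 0.98 for T and NK cell and 1.24 for erythroid markers; with it at the 25th, 0.85 for T and NK cell and 1.56 for stromal markers. With no floor, plasmacytoid and erythroid markers had 0.30 and 0.30, and stromal markers had 1.46 after quantile normalization. The sign turned for prostaglandin genes (-0.067 without suffixed probe sets), chemoattractant receptors (-0.12, floor at the 75th percentile), conventional DC markers (-0.045) and Zeb2 (0.14), the latter both with the median over probe sets. The cause was not tested. Of 289 named genes, 175 stayed within the probe set spread. Ratios of genes near the floor are limited by signal over background. No paired analysis was possible because each group has 1 array and no replicate number.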

Other observations

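Of 10764 genes measured in both genotypes, 17 were at least 2-fold higher on one side and at least 2-fold lower on the other, Cpa3 and Fabp4 among them. Of 631 genes higher in LXR-DKO, 15 were lower in WT, beside 4.79% lower over all genes measured in WT. Of 188 genes lower in LXR-DKO, 2 were higher in WT, beside 2.93% higher over all. Those named next were chosen after their values were seen. Igfbp4, whose product binds insulin-like growth factors, had signals of 931.1 and 4610.6 in LXR-DKO control and LPS and of 513.0 and 198.0 in WT. Its 6 measured probe sets in LXR-DKO ranged from 0.82 to 2.84 on the log2 scale. Plac8, a gene of plasmacytoid and other immune cells, had 568.9 and 2034.4 in LXR-DKO and 264.4 and 54.7 in WT. Tnfsf4, the OX40 ligand gene, had 101.0 and 233.6 in LXR-DKO and 124.0 and 61.5 in WT. Cd72, a B cell and myeloid surface gene, had 562.5 and 1186.6 in LXR-DKO and 211.6 and 67.2 in WT. In the other direction, Taf7, a general transcription factor gene, had 122.8 and 49.3 in LXR-DKO and 69.4 and 142.8 in WT.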
